A study of Rattus norvegicus with 8 samples.

Results

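RNA polymerase I is the nuclear enzyme that transcribes the ribosomal RNA genes in the nucleolus. It needs the initiation factor Rrn3, the HMG-box protein Ubtf that covers the ribosomal DNA, and the promoter selectivity factor SL1, of which Taf1d is a subunit. In liver, as in other tissues, its output sets how many ribosomes a cell can build, and it rises and falls with growth signals. The 10 genes described here are 7 subunits of the enzyme (Polr1a to Polr1g) and the 3 factors Rrn3, Ubtf and Taf1d. All probes whose accession maps to these symbols by RefSeq were taken, which gave 13 of the 30367 probes on the array, for 9 of the 10 genes. Taf1d had no matching probe and was not analysed here. The set was chosen by the log2 change between the diets in the ratio and in Cy5 alone, already known from these arrays, so the genes' own values are a description and carry no test.

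The PFOS group consisted of 4 male rats, adult and of the Sprague-Dawley strain, given feed with 50 mg/kg PFOS, the surfactant perfluorooctanesulfonate as its potassium salt, over 28 days. The control group consisted of 4 rats of the same strain, sex and age class given control diet over the same time. Each rat had 1 two-colour array, its liver RNA labelled with Cy5 and a commercial total RNA pool, the same on every array, with Cy3. Values are log2 ratios of Cy5 over Cy3, and a log2 change is PFOS minus control. Precision is limited by how few arrays there are: a log2 change had a standard error of 0.109 in the median feature.

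The PFOS arrays had a median Cy5 brightness of 116 to 160 units and the control arrays 122 to 159 units. All lay on 1 slide and were scanned on 1 date. The slide had 2 rows, each with 2 arrays of either group, and row 1 was the brighter one (154.5 to 160 units, against 116 to 138 units in row 2). Log2 ratios correlated across features at 0.973 to 0.982 among PFOS arrays, at 0.980 to 0.984 among control arrays and at 0.958 to 0.974 between them. Of 8 hepatocyte marker genes tested, among them Alb (log2 change -0.12) and Hnf4a (0.12), none was called in the ratio. With limma 2 of them had an unadjusted p under 0.05, Tat (0.84) and Ttr (-0.45), each with overlapping groups. Ttr changed by 0.04 in Cy5 alone and by 0.52 in Cy3 alone, the common reference, and Tat by 0.96 and 0.13. In Cy5 alone 1 of the 8 markers, Serpina1, was called lower (-0.29). After quantile normalization, which gives every array the same distribution of Cy5 values, the Cy5 signals of the 8 markers were summed. The sums were 1438627 to 1518255 units in PFOS livers and 1440311 to 1523469 units in control livers. That step holds the sums of very bright probes close together, so their likeness does not show that hepatocyte RNA was unchanged. Since this is whole liver, fewer cells of a type and less RNA per cell cannot be told apart.

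Of the 9 genes with a probe, 8 passed the brightness filter, which asked for a Cy5 signal well above background on at least 4 of 8 arrays. Of these 8 genes, each read on its brightest probe, 7 had a log2 change above 0, where 47.7% of all 15204 tested features did. Their median change was 0.24, against -0.011 over all features, and they ran from -0.05 to 0.63. A feature is called here where the limma fit over all tested features gave a Benjamini-Hochberg adjusted p under 0.05. In that fit 1 of the 8 genes, Polr1g, was called, and it was higher in PFOS livers. Among all features 3.99% were called, 1.84% as higher in PFOS and 2.14% as lower. The groups did not overlap, with PFOS higher, for 3 of the 8 genes (Polr1b, Polr1e and Polr1g), as for 5.91% of all features. Polr1e is in all these counts, though it passed the filter through the PFOS arrays, with 4 of them and 1 control array well above background. Nothing about the enzyme is read from these shares, because the genes were chosen with the contrast known.

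**Figure D1:**
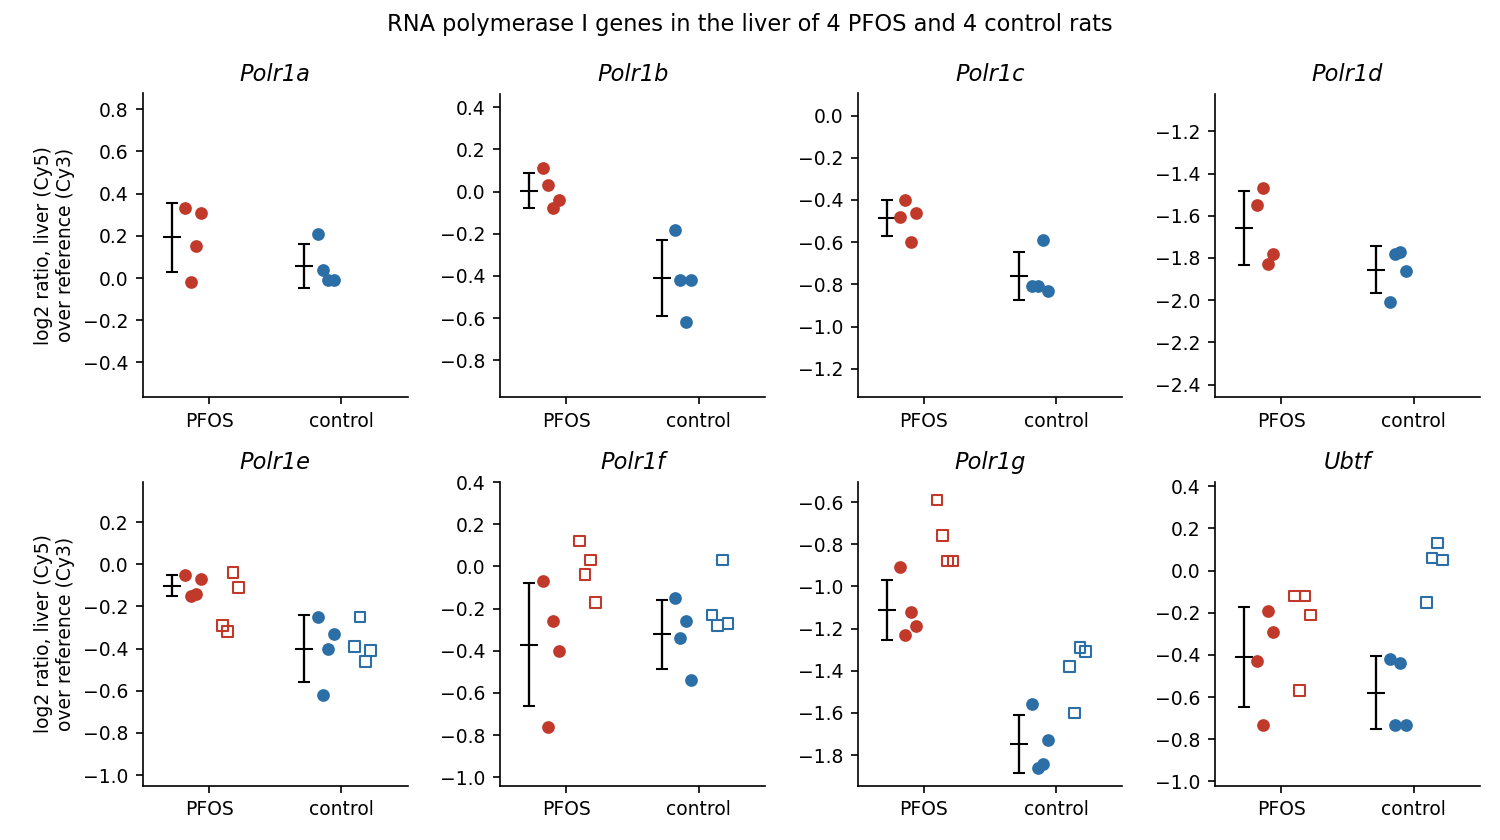
Log2 ratio of liver (Cy5) over reference RNA (Cy3) for the 8 tested genes, PFOS arrays left and control arrays right in each panel. Filled circles are the probe that stands for the gene, open squares a second probe, and bars the mean with its SD over 4 arrays. Every panel spans the same number of log2 units. Polr1g is separated between the diets on both of its probes, at -1.23 to -0.91 in PFOS and -1.86 to -1.56 in control livers on the filled one.

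Polr1g and Polr1e form the heterodimer that sits on the outside of the enzyme and helps it start and elongate, like the A34.5 and A49 subunits in yeast. Polr1g showed the widest difference between the diets of the 8 genes, except with the scanner software's processed signals, where Polr1e was at 0.78 and Polr1g at 0.69. It had log2 ratios of -0.91, -1.23, -1.12 and -1.19 in PFOS livers, against -1.56, -1.86, -1.84 and -1.73 in control livers. The lowest PFOS value lay above the highest control value. The means were -1.11 ± 0.14 in PFOS and -1.74 ± 0.14 in control livers (SD, n = 4 each), a log2 change of 0.63 (SE 0.10) or 1.55-fold. A second Polr1g probe, A_64_P072412, had -0.59, -0.76, -0.88 and -0.88 in PFOS livers, against -1.38, -1.60, -1.29 and -1.31 in control livers. Its change was 0.62 (SE 0.10), so both probes of the gene gave the same size, and again no value of one group reached the other.

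The partner Polr1e was close to background. Its brighter probe had -0.05, -0.15, -0.14 and -0.07 in PFOS livers, against -0.25, -0.62, -0.40 and -0.33 in control livers. The groups did not overlap, and the change was 0.30 (SE 0.09). That probe was well above background on all 4 PFOS arrays but on 1 control array, so it passed the filter through the group in which it was higher. On PFOS 3 and PFOS 4 only a share of 0.5 of its spots was well above background, which the filter counted as enough. Its change depended on the background correction: it was 0.52 with normexp at offset 0 and 0.78 with the scanner software's processed signals. The other Polr1e probe was well above background on 1 array of each group and gave 0.19 (SE 0.09), with overlapping groups.

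Polr1a and Polr1b are the largest and second-largest subunits and together build the catalytic centre. Polr1b had 0.11, 0.03, -0.08 and -0.04 in PFOS livers, against -0.18, -0.42, -0.62 and -0.42 in control livers. All PFOS values were above all control values, and control 1 was the nearest of the control livers. The change was 0.41 (SE 0.10), or 1.33-fold, and it was not called. It was called without control 1 (0.49), with slide row as a block, in the ratio and in Cy5 alone, and in the ratio under eBayes with trend and robust options.

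Polr1a, its partner in the active site, had 0.33, -0.02, 0.15 and 0.31 in PFOS livers, against 0.21, 0.04, -0.01 and -0.01 in control livers. PFOS 2 was as low as the lowest control livers and control 1 lay above PFOS 3, so the groups overlapped. The change was 0.13 (SE 0.10). In slide row 1 alone it was 0.03 and in row 2 alone 0.24.

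Polr1c and Polr1d pair with each other, and the pair is a shared part of polymerases I and III, on which the larger subunits assemble. Polr1c had -0.48, -0.40, -0.60 and -0.46 in PFOS livers, against -0.81, -0.81, -0.59 and -0.83 in control livers. Control 3 stood apart from the other control livers and was level with PFOS 3, and the other control values lay below every PFOS value. The change was 0.27 (SE 0.09). Polr1d had -1.55, -1.47, -1.83 and -1.78 in PFOS livers, against -2.01, -1.78, -1.77 and -1.86 in control livers. The high values were both PFOS arrays of slide row 1, and the groups overlapped. Its change was 0.20 (SE 0.10), which was 0.39 within row 1 and 0.01 within row 2.

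Polr1f is the stalk subunit, to which Rrn3 docks. On the probes that stand for the genes, it was the 1 tested gene with a change below 0 in the ratio. That sign was not stable: the change was 0.03 with the scanner software's processed signals and -0.15 to 0.08 with 1 array left out. It was -0.17 in slide row 1 alone and 0.07 in row 2 alone. In Cy5 alone the change was 0.02, and in Cy3 alone, the common reference, 0.08 (SE 0.03). Its values were -0.07, -0.76, -0.26 and -0.40 in PFOS livers, against -0.15, -0.34, -0.26 and -0.54 in control livers. PFOS 1 was the highest and PFOS 2 the lowest of all 8 arrays, and the change was -0.05 (SE 0.15). A dimmer Polr1f probe, well above background on 2 PFOS arrays and on no control array, ran from -0.17 to 0.12 in PFOS livers and from -0.28 to 0.03 in control livers. Its change was 0.17 (SE 0.10).

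Rrn3, which carries the growth signal to the enzyme and makes it competent to initiate, was too dim to be tested. Its probe was well above background on 1 PFOS array and on 2 control arrays. Its ratios were 0.03, -0.09, -0.04 and 0.01 in PFOS livers, against -0.26, 0.01, -0.24 and -0.32 in control livers. Control 2 lay among the PFOS values and the other control livers below them, at a brightness where the array could not tell the signal from background in most livers.

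Ubtf was measured by a pair of probes past the filter that gave changes of opposite sign. The brighter one, A_64_P045792, had -0.43, -0.73, -0.19 and -0.29 in PFOS livers, against -0.42, -0.73, -0.44 and -0.73 in control livers, a change of 0.17 (SE 0.13). The other, A_44_P125432, had -0.12, -0.57, -0.12 and -0.21 in PFOS livers, against -0.15, 0.06, 0.13 and 0.05 in control livers, a change of -0.28 (SE 0.12). On the first probe the groups overlapped through most of their range. On the second, 3 of the 4 control livers lay above every PFOS liver. The probes carry the accessions of different Ubtf transcripts, and the log2 change of their mean was -0.06. The direction for Ubtf depends on the probe, and neither was called.

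The same 8 genes were then read in each channel alone, since a ratio can move through either dye. In Cy5 alone, which holds the liver RNA, 8 of 8 changes were above 0, where 47.6% of all features were. The median was 0.21 over the probes that stand for the genes, against -0.010 over all features. The changes ran from 0.02 to 0.68, and Polr1g was again the 1 called, at 0.68 (SE 0.09). Over all features Cy5 alone called 4.69%, 2.22% as higher in PFOS and 2.47% as lower. The second Ubtf probe, A_44_P125432, had a Cy5 change of -0.25 (SE 0.13), and all its PFOS values lay below all its control values (7.34% of all features did so). With PFOS higher, the groups did not overlap for 4 of the 8 genes, which were Polr1b, Polr1c, Polr1e and Polr1g, against 6.03% of all features. Polr1e is among them although it passed the filter through the PFOS arrays. Polr1g had Cy5 levels of 9.43, 9.14, 9.22 and 9.14 in PFOS livers, against 8.68, 8.47, 8.49 and 8.58 in control livers, on a quantile-normalized log2 scale. Control 1 was the highest control liver and still lay clearly below all PFOS livers. In Cy3 alone, the common reference, the 8 changes ran from -0.03 to 0.08 and none was called with limma (1 had an unadjusted p under 0.05, and 0.0789% of all features were called). Polr1g, Polr1b and Polr1c had changes of 0.03, 0.01 and -0.02 there, and the 0.08 was that of Polr1f.

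**Figure D2:**
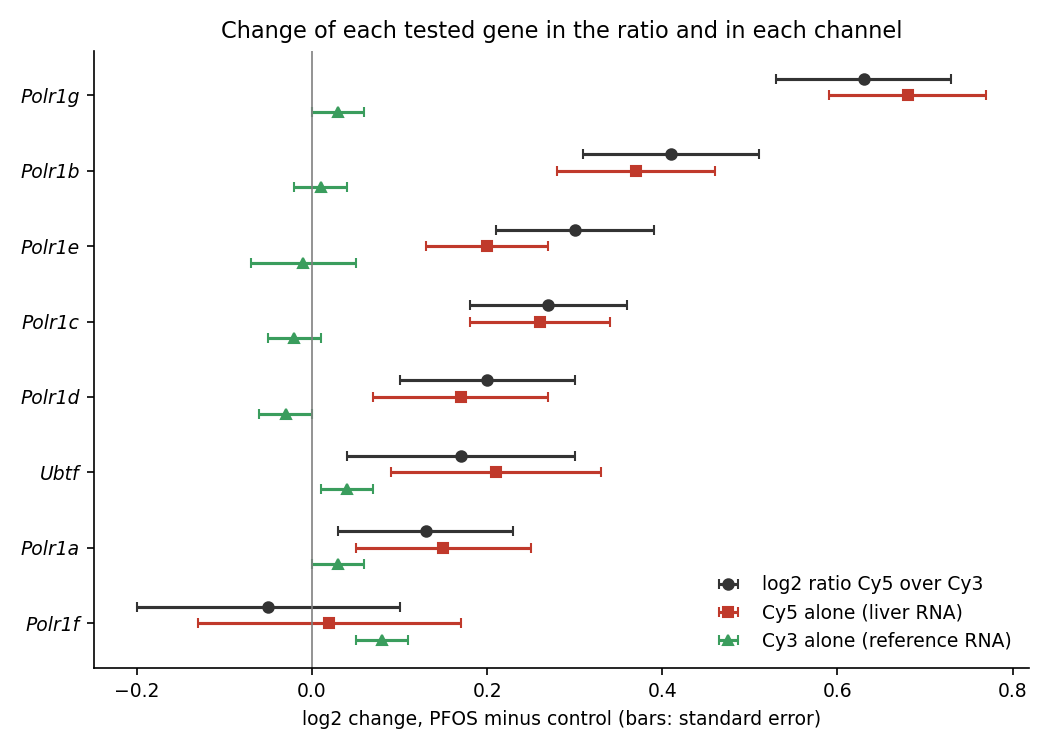
Log2 change, PFOS minus control, of each tested gene in the Cy5 over Cy3 ratio (circles), in Cy5 alone (squares) and in Cy3 alone (triangles), with the standard error from limma as bars. Ratio and Cy5 lie together for Polr1g (0.63 and 0.68), while the reference channel stays between -0.03 and 0.08 for all 8 genes.

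Each gene was also set against the reference pool on its own probe, as Cy5 over Cy3. Polr1d stood at 0.317 times the reference in PFOS livers and 0.277 times in control livers, and Polr1g at 0.462 times in PFOS and 0.298 times in control livers. Polr1c stood at 0.714 times in PFOS and 0.591 times in control livers, and Polr1a at 1.14 times in PFOS and 1.04 times in control livers. These levels rest on the loess normalization. The median of the 8 genes in control livers was a log2 ratio of -0.49, and it was -1.49 with median centring in its place. Dyes were not swapped, so dye and sample cannot be told apart in these levels.

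RefSeq lists a promoter window for all 10 genes, 250 bases before to 50 after the gene start on the GRCr8 assembly, with a GC content of 46.0% to 68.7% (median of all 33469 windows, 51.7%). The windows of the 4 genes with the largest changes in the ratio are shown. Capitals mark the E-box CACGTG and the ETS core CGGAAG or its other-strand form CTTCCG.
Polr1g, GRCr8 chr1:88138720-88139019, minus strand: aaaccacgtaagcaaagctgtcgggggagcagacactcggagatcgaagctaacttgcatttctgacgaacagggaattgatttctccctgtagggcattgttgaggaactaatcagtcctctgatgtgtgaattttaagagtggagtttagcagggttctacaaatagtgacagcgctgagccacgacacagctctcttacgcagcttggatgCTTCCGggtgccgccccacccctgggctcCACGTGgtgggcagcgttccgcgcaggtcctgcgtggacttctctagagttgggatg
Polr1b, GRCr8 chr3:136786880-136787179, plus strand: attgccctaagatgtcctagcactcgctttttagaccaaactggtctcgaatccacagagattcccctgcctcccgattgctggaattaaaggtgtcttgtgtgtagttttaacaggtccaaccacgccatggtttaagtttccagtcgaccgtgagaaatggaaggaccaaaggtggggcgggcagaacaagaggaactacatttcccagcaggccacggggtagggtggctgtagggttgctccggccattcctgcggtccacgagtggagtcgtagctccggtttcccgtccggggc
Polr1e, GRCr8 chr5:64074873-64075172, plus strand: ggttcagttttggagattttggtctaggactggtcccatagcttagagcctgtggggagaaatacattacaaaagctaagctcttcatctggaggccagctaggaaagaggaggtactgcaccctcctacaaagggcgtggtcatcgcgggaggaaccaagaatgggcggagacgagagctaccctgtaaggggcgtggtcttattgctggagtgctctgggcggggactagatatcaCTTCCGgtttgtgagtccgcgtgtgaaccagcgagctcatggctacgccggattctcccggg
Polr1c, GRCr8 chr9:22233068-22233367, plus strand: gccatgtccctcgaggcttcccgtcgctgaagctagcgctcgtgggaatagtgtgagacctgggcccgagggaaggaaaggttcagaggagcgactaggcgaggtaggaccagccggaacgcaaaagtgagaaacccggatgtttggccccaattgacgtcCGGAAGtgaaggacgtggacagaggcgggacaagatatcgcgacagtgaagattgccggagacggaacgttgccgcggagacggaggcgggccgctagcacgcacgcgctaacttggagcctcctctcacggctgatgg
An E-box, the site that Myc and its relatives bind, was found in 1 of the 10 windows and in 6.42% of all windows. The 1 window was that of Polr1g, where its first base lies 7 bases before the gene start. The ETS core was found on either strand in 6 of 10 windows (Polr1a, Polr1c, Polr1d, Polr1e, Polr1g and Rrn3) and in 16.6% of all, and in Polr1e it begins 12 bases before the start. The window of Polr1b holds neither. The GC box GGGCGG or CCGCCC was found in 7 of 10 windows (33.1% of all), the CCAAT box, searched as ATTGG or CCAAT, in 1 (37.5% of all), and TATAAA or TTTATA in 1, that of Polr1f (14.2% of all). None of the marked E-box and ETS letters overlap. A match of letters is a description and shows no binding.

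The other genes of ribosomal RNA transcription were taken from 7 lists with 81 genes, of which 66 were tested in the same fit. In the ratio 2 of these 66 genes (3.03%, against 3.99% of all features) rose in PFOS livers, none fell and 64 were not called, with a median log2 change of 0.05. In Cy5 alone 2 genes, Wdr43 and Eif4ebp1, were called higher and 2, Polr2l and Phf8, lower, where 2.22% and 2.47% of all features were. The lists were drawn up with earlier results of these data known.

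Among the Pol I factors outside the set of 10, none of 5 was called (limma, 1 with an unadjusted p under 0.05), and the median was 0.07. Polr1h, the small subunit that cleaves stalled transcripts, ran from -0.65 to -0.50 in PFOS livers and from -0.80 to -0.39 in control livers, a change of 0.09 (SE 0.11). The SL1 subunits Taf1b and Taf1c had log2 changes of -0.15 (SE 0.15) and 0.06 (SE 0.10), and their partner Tbp, the TATA-binding protein, one of 0.07 (SE 0.07). Control 1 gave no Taf1b value, because its spots were marked as outliers, so that gene was fitted on the other 7 arrays. Nolc1, a nucleolar phosphoprotein that associates with the enzyme, had the largest value, at -1.19, -1.28, -1.39 and -1.38 in PFOS livers, against -1.52, -1.47, -1.58 and -1.76 in control livers. Its groups did not overlap, with PFOS higher, as for 5.91% of all features, and it was not called (0.28, SE 0.09, limma adjusted p = 0.132). Taf1a and Cavin1 were below the brightness filter, and Ttf1 and Tcof1 were not analysed here.

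Of 4 subunits that all nuclear polymerases share none was called in the ratio (limma, 1 with an unadjusted p under 0.05), with a median of -0.03. Polr2l had 1.86, 1.97, 1.75 and 1.73 in PFOS livers, against 2.29, 2.25, 2.13 and 2.08 in control livers, a change of -0.36 (SE 0.09, limma adjusted p = 0.0527). Every PFOS liver lay below every control liver. The share of all features for which this held is not given here for the ratio, and it was 7.34% in Cy5 alone. Polr2l was called lower in Cy5 alone (-0.31, limma adjusted p = 0.0386), and in the ratio with slide row as a block, with array weights and among probes well above background on all 8 arrays. Polr2f and Polr2h had changes of 0.01 (SE 0.11) and -0.07 (SE 0.14). Polr2e had -0.08, 1.68, -0.04 and -0.19 in PFOS livers, against -0.84, -0.25, -0.31 and -0.45 in control livers. Its change of 0.80 (SE 0.38) was not called, though the groups did not overlap, with PFOS higher (5.91% of all features). It was 0.36 without PFOS 2, the high array. The change was 0.34 in Cy5 alone and -0.46 in Cy3 alone, the common reference. Its other probes gave 0.12 and 0.26 in the ratio. Polr2k was not analysed here.

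For the neighbouring polymerases, none of 18 Pol III subunits and factors was called (limma, 1 with an unadjusted p under 0.05), with a median of 0.06 and a range of -0.11 to 0.26. Polr3d was the largest of these at 0.26 (SE 0.10, limma adjusted p = 0.204). It was followed among the smallest p-values by Polr3e (0.17, SE 0.08), Polr3gl (0.17, SE 0.09) and Gtf3c5 (0.15, SE 0.09), a subunit of TFIIIC. Of the 18 genes only Polr3e had groups that did not overlap, with PFOS higher. None of 7 Pol II genes was called (limma, 2 with an unadjusted p under 0.05), with a median of 0.02. Here Polr2d and Polr2b were at 0.16 (SE 0.07) and 0.18 (SE 0.09), and Polr2j and Polr2g at -0.17 (SE 0.08) and -0.19 (SE 0.09). The groups did not overlap for Polr2d, with PFOS higher (5.91% of all features), and for Polr2j and Polr2g, with PFOS lower. For PFOS lower the share of all features is not given for the ratio, and it was 7.34% in Cy5 alone.

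**Figure D3:**
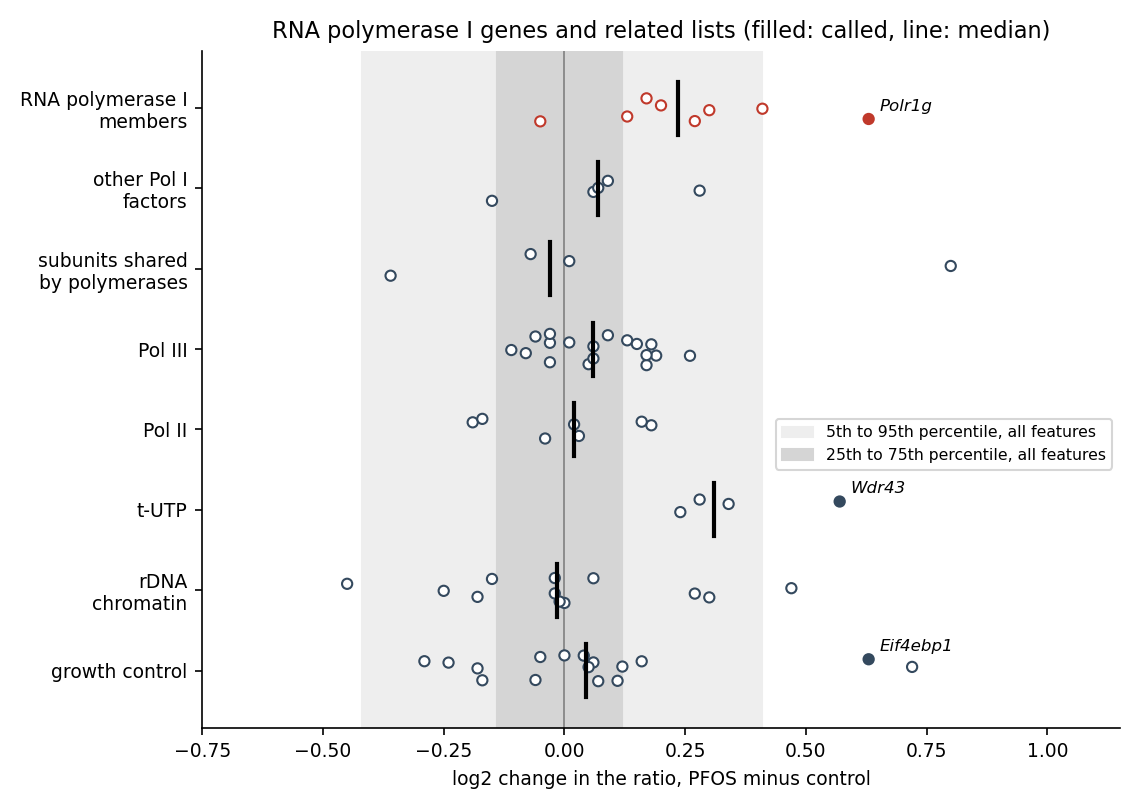
Log2 change in the ratio, PFOS minus control, of every tested gene in the Pol I set (top row) and in 7 related lists. Filled points were called by limma at an adjusted p under 0.05, black lines are medians and grey bands span the 25th to 75th (-0.14 to 0.12) and 5th to 95th percentile (-0.42 to 0.41) of all tested features. The median is 0.24 for the Pol I set and 0.31 for the t-UTP genes, and it lies between -0.03 and 0.07 for the other 6 lists.

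The t-UTP proteins bind ribosomal DNA with the enzyme and start the processing of its transcript. All 4 tested t-UTP genes had changes above 0, with a median of 0.31, and 1 was called. Over all features 47.7% were above 0 and 3.99% were called. Wdr43 rose in PFOS livers, with -0.37, -0.61, -0.62 and -0.60 there, against -1.10, -1.18, -1.14 and -1.05 in control livers. The change was 0.57 (SE 0.08, limma adjusted p = 0.00682), and the groups stood well apart. Heatr1 (0.34, SE 0.12, limma adjusted p = 0.156), Utp4 (0.28, SE 0.08, limma adjusted p = 0.0783) and Utp15 (0.24, SE 0.09, limma adjusted p = 0.169) were not called, although the groups of each did not overlap, as for 5.91% of all features in that direction. Nol11 and Wdr75 were not analysed here.

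None of 12 genes of ribosomal DNA chromatin and nucleolar structure was called in the ratio (limma, 5 with an unadjusted p under 0.05), with a median of -0.01. The smallest p-values belonged to the histone demethylase Phf8, at -0.45 (SE 0.13, limma adjusted p = 0.0887), and to the nucleolar helicase Ddx21, at 0.47 (SE 0.14, limma adjusted p = 0.101). Phf8 was called lower in Cy5 alone (-0.38, limma adjusted p = 0.0476), and its other probe was at -0.15 (SE 0.16) in the ratio. Ddx21 had -1.01, -1.45, -1.52 and -1.36 in PFOS livers, against -2.00, -1.56, -1.76 and -1.89 in control livers, with no overlap. Npm1, the abundant nucleolar chaperone, was at 0.30 (SE 0.11), and Rrp8, a subunit of a ribosomal DNA silencing complex, at 0.27 (SE 0.10). In this list the groups did not overlap for 2 genes with PFOS higher, Ddx21 and Rrp8 (5.91% of all features). The same held for 2 with PFOS lower, Phf8 among them, where the share of all features was 7.34% in Cy5 alone and is not given for the ratio.

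Among 16 genes of growth control upstream of the enzyme, 1 rose, none fell and 15 were not called, with a median of 0.04. The gene that rose was Eif4ebp1, which encodes the translation inhibitor 4E-BP1, a target of the mTOR kinase. It had -1.35, -1.53, -1.45 and -1.88 in PFOS livers, against -2.32, -2.18, -2.09 and -2.15 in control livers, a change of 0.63 (SE 0.12, limma adjusted p = 0.0218). The call was lost without PFOS 1, PFOS 2, PFOS 3, control 1 or control 2, with changes of 0.56 to 0.74 over the arrays left out. It was also lost with slide column as a block, with between-array scaling and with median centring. Myc, a transcription factor that activates polymerase I genes, had -3.28, -2.55, -1.50 and -2.07 in PFOS livers, against -3.47, -2.17, -3.02 and -3.61 in control livers. These groups overlapped widely and Myc was not called (0.72, SE 0.41, limma adjusted p = 0.36), with -0.10 in slide row 1 and 1.53 in row 2. Mtor itself (-0.18, SE 0.07), and the Myc partner Max (-0.17, SE 0.09) and antagonist Mxi1 (-0.24, SE 0.09), were not called either. In this list the groups did not overlap for 1 gene with PFOS higher, Eif4ebp1 (5.91% of all features). The same held for 2 with PFOS lower, Mtor and Mxi1, where the share of all features was 7.34% in Cy5 alone and is not given for the ratio.

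For 4 other kinds of cell every tested marker had a change below 0 on the probe that stands for the gene. These were 8 Kupffer cell and macrophage markers (median -0.36), 5 endothelial markers (median -0.46), 5 markers of dividing cells (median -0.25) and 4 erythroid markers (median -0.41). None was called (limma, unadjusted p under 0.05 for 1, 3, 1 and 0 of them). Other probes of Csf1r, Hbb and Mcm2 were above 0, at 0.02, 0.05 and 0.09. Those of Cd5l, Fcgr2b, Hba-a1 and Ccna2 were below 0, at -0.87, -0.53, -0.19 and -0.23. All 4 tested cholangiocyte markers were above 0, as were 47.7% of all features. The summed quantile-normalized Cy5 signal of the endothelial markers was 6899 to 9703 units in PFOS livers and 9251 to 16047 units in control livers. For Kupffer markers it was 17672 to 30151 units in PFOS and 20837 to 33807 units in control livers. For dividing-cell markers it was 1519 to 2031 units in PFOS and 1960 to 2206 units in control livers, and for erythroid markers 114678 to 140582 units in PFOS and 94792 to 247105 units in control livers. Their part in the values of the polymerase I genes was not tested.

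Across the 8 arrays, the mean of the 8 genes, each centred on its own mean, was 0.24, 0.03, 0.11 and 0.13 in PFOS livers, against -0.02, -0.19, -0.12 and -0.18 in control livers. PFOS 1 was above the gene's own mean for 8 of 8 genes and control 4 for none. Of 9612 other genes with a symbol, the 5 with the most similar profile over the arrays were Cebpg (Pearson r = 0.986), Cebpz (0.969), Mafk (0.968), Usp14 (0.964) and Casp4 (0.963), over 8 arrays that share the diet contrast. They were picked by a profile that already separates the diets, so higher values in PFOS livers were built into the choice. Their changes, calls and p-values are therefore a description and no evidence of a diet effect. Casp4, an inflammatory caspase, rose by 0.63 (SE 0.14, limma adjusted p = 0.0368), a call that held in 2 of the 8 fits with an array left out (0.51 to 0.71). It was also lost with slide column as a block, with median centring and with the scanner software's processed signals. Cebpg, a basic leucine zipper factor, was at 0.39 (SE 0.09, limma adjusted p = 0.0514) and was not called. Cebpz (0.34, SE 0.10), Mafk (0.22, SE 0.07) and Usp14 (0.29, SE 0.09) were not called either.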

How the data were processed

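Liver RNA of 4 PFOS and 4 control rats was measured on two-colour arrays, grouped by the sample labels, with replicates numbered in accession order. The authors deposited spot intensity values (per the file headers, Agilent Feature Extraction 10.7.3.1: median signal and local background, and processed signals), and a value table on a log2 scale. That table's scale and direction were read from its correlation of 0.995 to 0.997 with the loess-normalized ratio without background subtraction. Its medians were -0.052, -0.061, -0.061 and -0.053 (PFOS 1 to 4) and -0.048, -0.054, -0.052 and -0.057 (control 1 to 4), and its centring is unknown. Background was corrected with normexp (offset 50), ratios were normalized by loess, and outlier spots (733 to 991 per array) were dropped. Cy5 and Cy3 alone were quantile normalized. Of 30367 probes, 18004 had a RefSeq symbol (GRCr8 table, matched without versions) and 16952 passed the filter. The brightest probe stood for a gene. Fits used limma 3.58.1 in R 4.3.3 over 15204 features, with two-sided p-values. On simulated ratios of 15200 features the fit called 2% of genes changed by 0.25, 36% of those changed by 0.5 and 80% of those changed by 1 (log2). There 50 features were changed at each size, with normal noise independent between features. The rates depend on how many features change, so they need not hold for the measured arrays.

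The members and lists were chosen with earlier results of these data known. Named genes are the 10 members, the Pol I factors and shared subunits, the 4 smallest p of each list, Myc and the 5 nearest profiles. Alternatives were 15 settings, each array left out, and either slide row alone, the last added after the data were seen. Marker lists of 8 cell types were fitted too: no gene was called for stellate cells (median -0.14), cholangiocytes (0.10), leukocytes (-0.15) or erythroid cells (-0.41), with limma (unadjusted p under 0.05 for 2, 1, 0 and 0 genes).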

Additional observations from a re-analysis of the deposited data

Results flagged for a closer look

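Of 16 sets of 4 arrays, the PFOS and control ratios of each of the 8 tested genes, 1 held an array far from the other 3. Polr1c had a log2 ratio of -0.59 in control 3, against -0.83 to -0.81 in the other control livers, with a gap of 0.930 of the group's range, over the 95% limit of Dixon's test. Chance marks about 1 in 20 such groups.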

How the results depend on the processing

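Polr1g kept its direction in all 8 fits with an array left out and 15 other settings (0.56 to 0.69) and its call in all but median centring in place of loess (0.69) and slide column as a block (0.63), and it was 0.64 and 0.62 within slide rows 1 and 2. The 1 of 8 genes called in the ratio became 0 with median centring, with slide column as a block and within either slide row alone, and 2, with Polr1b, under eBayes with trend and robust options and with slide row as a block. With 1 array left out it was 1 to 2, the 2 being without control 1. The median change of the 8 genes, 0.24, was 0.35 in slide row 1 alone. In Cy5 alone 2 genes were called with the scanner software's processed signals and with slide row as a block, and 1 to 2 with 1 array left out. Of the listed genes, 2 were called, 0 with median centring and within either slide row, 1 with slide column as a block or after between-array scaling, 1 to 2 with 1 array left out, and 3, with Polr2l as the lower one, with slide row as a block, with array weights and for probes well above background on all 8 arrays. All features called in the ratio numbered 239 with median centring, 268 with slide column as a block and 93 and 32 within rows 1 and 2, against 606. The median log2 ratio of the genes in control livers was -1.49 with median centring. On the given strand only, the ETS core was in 2 promoter windows and the CCAAT box in 0. No paired analysis was possible because the labels give the animals no shared replicate numbers. Dim signal limits Rrn3, Polr1e and the second Polr1f probe.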
